A study of Rattus norvegicus with 18 samples.

Results

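The control side striata of 3 L-DOPA+R rats were compared with the control side striata of 3 untreated (UNT) rats, which are 6 of the 18 striata sequenced in this study of levodopa-induced dyskinesia. The question was which CpGs of the unlesioned striatum differed in DNA methylation after L-DOPA given together with Riluzole. A CpG was a member when each of the 6 striata had a cytosine of it with at least 10 reads. Before that, a cytosine was dropped if it lay 46 to 50 bases past a called one on its own strand, and both strands of a CpG were then added up. This kept 408100 of the 1220991 CpGs that passed the minimum in at least 1 of the 6 striata.

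The 9 rats of the study were juvenile male Wistar rats, and all of them, the UNT rats included, received the dopaminergic toxin 6-OHDA into 1 medial forebrain bundle on postnatal day (PND) 21. The control side is thus the side without toxin in a lesioned rat, and none of the 9 rats was without a lesion. UNT rats were given saline, L-DOPA rats were given L-DOPA, and L-DOPA+R rats were given L-DOPA and Riluzole, in each case over 2 weeks from PND 35 to PND 49 and once more on PND 53, when the striata were taken. Per the methods, the L-DOPA solution of both drug groups also held benserazide, an inhibitor of the enzyme that turns L-DOPA into dopamine, which acts outside the brain. Riluzole was dissolved in dilute Tween, which the saline of UNT rats is not said to hold. No group received Riluzole alone, so the effects of L-DOPA and of Riluzole cannot be told apart in this comparison. Whole striatum was used, in which a change in the share of a cell type and a change within its cells cannot be told apart, and methylation calls alone gave no check of the labelled tissue.

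A methyl group on the cytosine of a CpG is copied at each cell division, and CpG-dense promoters are mostly free of it while scattered CpGs in gene bodies and between genes mostly carry it. A level between these ends can come from cells that differ, from the parental alleles of an imprinted gene, or from alleles that differ in sequence. L-DOPA is the precursor of dopamine and is used to replace it in Parkinson's disease, and Riluzole is a drug that blocks sodium channels and lowers the release of glutamate.

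Reduced representation bisulfite sequencing (RRBS) reads the ends of fragments cut by the enzyme MspI at CCGG, and unmethylated cytosines are read as T after bisulfite treatment. The L-DOPA+R striata were read less deeply than the UNT striata, with 19383285 to 24303219 calls against 33567099 to 44030774, and with a median of 19 to 24 reads per tested CpG against 33 to 44. Depth and treatment therefore cannot be told apart, and at these depths a single striatum gives a level in steps of 2 points or more at most CpGs. In an unmethylated spike-in, 0.681 to 0.928% of the calls were still read as C in UNT and 0.429 to 0.513% in L-DOPA+R.

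Methylation was lower in L-DOPA+R than in UNT at most of the CpGs that were called. Of the 408100 CpGs, 270 were differentially methylated sites (DMS), or 0.0662%, with a q under 0.01 in a logistic model with overdispersion correction, a chi-square test and Benjamini-Hochberg adjustment over all tested CpGs. The L-DOPA+R striata were the less methylated ones at 199 DMS (0.0488% of the tested CpGs) and the more methylated ones at 71 (0.0174%). An unadjusted p under 0.05 was found at 34442 CpGs (8.44%), of which 23790 (5.83%) were lower and 10652 (2.61%) higher. The count depended on the test: the F test and limma each gave 0 DMS, with 7411 and 32640 CpGs at an unadjusted p under 0.05. It also depended on single striata, with 162 DMS without L-DOPA+R replicate 1, 471 without UNT replicate 3 and 494 without L-DOPA+R replicate 3.

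The mean level over the tested CpGs was 46.2% ± 0.352 (SD, n = 3) in UNT and 44.7% ± 0.815 (SD, n = 3) in L-DOPA+R. The 3 UNT striata had 46.5, 46.4 and 45.9%, and the 3 L-DOPA+R striata had 43.9, 44.6 and 45.6%. The groups did not overlap, and their difference of -1.55 points had a two-sided exact permutation p of 0.1, the smallest that 3 against 3 allows. As the share of methylated reads among all reads at these CpGs, which gives deep CpGs more weight, the difference was -6.52 points, with the same p. Such a share also shifts with how the reads of a striatum are spread over CpGs, and the part of this was not tested. At the median CpG the difference was -0.123 points, and the central 90% of CpGs lay between -13.6 and 7.02 points.

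The DMS had large differences. At the lower DMS the median difference was -30.2 points, with a median level of 70.5% in UNT and 31.2% in L-DOPA+R. At the higher DMS it was 47.2 points, from 10.4% to 80.6%. A difference above 50 points was found at 17 lower and 29 higher DMS, and 29 DMS differed by less than 20 points. Of all tested CpGs, 1.82% differed by at least 20 points. At 269 of the 270 DMS the 3 L-DOPA+R striata all lay on one side of the 3 UNT striata, where 8.48% of all tested CpGs did, 5.96% lower and 2.52% higher. The DMS were called on these same values, so their sizes and their lack of overlap are partly fixed by the call. The DMS nearest to the threshold had a q of 0.00995, and the first CpG outside it had 0.0101.

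**Figure D1:**
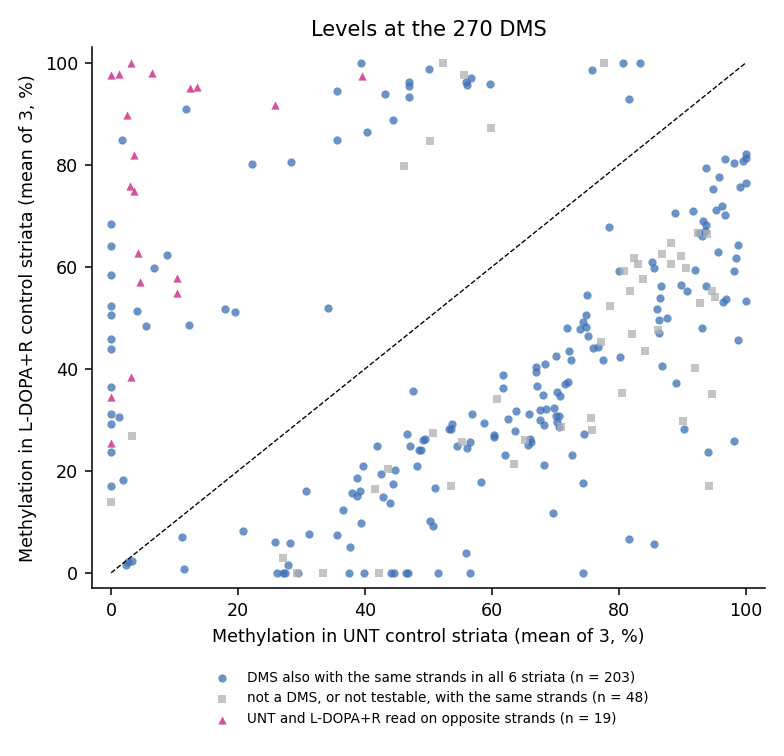
Mean methylation of the 3 UNT control striata (horizontal axis, %) and of the 3 L-DOPA+R control striata (vertical axis, %) at each of the 270 DMS, with a dashed line where both are equal. The 199 lower DMS spread below the line, with a UNT level of 20 to 80% at 60.8% of them. The 19 DMS whose groups were read on opposite strands (triangles) all lie above the line, mostly at the upper left.

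Both groups were not always read on the same strand of a CpG. At 19 of the 71 higher DMS (26.8%), and at none of the 199 lower ones, the UNT reads lay on one strand and the L-DOPA+R reads on the other. Among all tested CpGs this was so at 88 (0.0216%). A further result on read position was that 32 DMS (11.9%), 28 of them higher, lay 44 bases past a called cytosine, as did 2.74% of the tested CpGs. When only strands with at least 10 reads in all 6 striata were added up, 400259 CpGs remained and 210 were DMS, 166 lower and 44 higher. Of the original DMS, 159 lower and 44 higher ones were among them. DMS described here were read on a single strand that all 6 striata shared, unless stated otherwise. Those of Actn2, Morn4, Tmem119, Asic2, Mad1l1 and NM_001025002, 1 of Rn5-8s and 1 on chromosome 6 lay 44 bases past a called cytosine, and with cytosines 44 to 50 bases past left out these 8 and the mitochondrial DMS at 8883 and 12875 could not be tested. Whether the strand or the position in the read made a part of the differences was not tested.

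Genes were assigned from the study's lists of sites, which hold 1653 of the tested positions. The study chose these positions on the same samples, so they are not independent evidence, and 126 of them (7.62%) were DMS. These 126 DMS were 72 lower and 54 higher ones, where all 270 DMS were 199 lower and 71 higher. The lists thus held a larger part of the higher DMS, and the remaining DMS had no annotation here. Of the 126 DMS, 84 were listed as intergenic and 42 in a gene or promoter, 18 lower and 24 higher, in 37 genes. Where a DMS has more than 1 annotation, each was counted, which gave 10 in promoters, 18 in exons and 22 in introns. At 29 of the 42 the call was kept on the same strands, and at 9 the groups were read on opposite strands.

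The higher DMS of Tiam1, Rbm20 and Ppp1r14b were each read on one shared strand. Tiam1 encodes an activator of the small GTPase Rac that acts in dendritic spines. Its DMS in an intron, at 29986999 of chromosome 11 of rn6, was at 0% in each of the UNT control striata and at 55.6, 61.1 and 40% in L-DOPA+R. The difference was 54.3 points (q = 1.99e-14) with 10 to 49 reads per striatum. The single other tested CpG within 100 bp differed by 4.01 points. Another listed intronic position of Tiam1, at 29963284, went the other way without a call, at -12.1 points (q = 0.685). The 3 L-DOPA control striata had no methylated read at this CpG.

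Rbm20, which encodes a regulator of RNA splicing known from the heart, had a higher and a lower DMS in introns. At 274397891 of chromosome 1 the UNT striata had 50.6, 50 and 49.4% and the L-DOPA+R striata 96.4, 100 and 100%, a difference of 48.4 points (q = 9.83e-23). At 274457018 of the same chromosome they had 42.1, 31.1 and 46.5% and 0% in each, a difference of -41 points (q = 4.63e-17). In the L-DOPA rats, the control striata had 98.2, 97.5 and 95.9% at the first site and 0, 0 and 2.70% at the second.

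Ppp1r14b, which encodes an inhibitor of protein phosphatase 1, held a run of 3 higher DMS in its listed exon and promoter, at 222229988, 222229996 and 222230026 of chromosome 1. At the last of these, the UNT striata had 0, 8.33 and 4% and the L-DOPA+R striata 47.7, 50 and 56%, a difference of 46.9 points (q = 3.16e-12). The other two differed by 36.3 and 43.1 points. The L-DOPA control striata, with 54, 60.9 and 44.8% at the last site, did not lie near the UNT level either.

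Further higher DMS in genes were in Actn2, which encodes an actin crosslinker, in Morn4 and in Tmem119, a marker gene of microglia. The exonic site of Actn2 at 66325363 of chromosome 17 rose from 28.4 ± 5.10% (SD) to 80.6 ± 7.30%, and the L-DOPA+R reads were partly on the strand that UNT lacked. On the shared strand the difference was 47 points (q = 5.7e-07). The intronic site of Morn4 at 261330173 of chromosome 1 rose by 44.1 points, and by 42.4 points (q = 6.1e-05) on the shared strand. The intronic site of Tmem119 at 48601077 of chromosome 12 was at 31.6, 45.9 and 43.4% in UNT and 85.7, 95 and 78.3% in L-DOPA+R (45.6 points, q = 0.000225). Its q was 0.0631 without L-DOPA+R replicate 1 and 0.0166 without replicate 2.

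The DMS of Asic2 and Mad1l1 had the widest gaps among the genes named by the rule, but their groups were read on opposite strands. Asic2 encodes a subunit of acid-sensing ion channels and Mad1l1 a protein of the spindle checkpoint. In the exon of Asic2, at 68248477 of chromosome 10, the UNT striata had 13, 19.5 and 7.94% and the L-DOPA+R striata 90.5, 100 and 95%. In the intron of Mad1l1, at 16565435 of chromosome 12, they had 0, 5.26 and 3.70% and 62.5, 90 and 75%. No strand was read in all 6 striata at either site, so a difference on the same strand could not be measured. Opposite strands were also found at the DMS of Prdm1, Dok7, Rgl1, Azin2, Slc29a3, Zc3hav1 and Edem2, which are named after their values were seen.

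Gaps of more than 70 points were also seen at single DMS of Baiap3, Ros1 and Aldh1a3, which are named after their values were seen too. Baiap3 belongs to the Munc13 family of secretion proteins, Ros1 encodes a receptor tyrosine kinase and Aldh1a3 an enzyme that makes retinoic acid. At the exonic site of Baiap3, at 14604593 of chromosome 10, no UNT striatum had a methylated read, and the L-DOPA+R striata had 100, 52.6 and 52.4% (q = 0.00209). At that of Ros1, at 33155186 of chromosome 20, UNT had 97.4, 87.5 and 97% and L-DOPA+R 27.3, 43.8 and 0% (q = 0.000155). At that of Aldh1a3, at 127322195 of chromosome 1, they had 96, 94.6 and 92% and 0, 51.2 and 0% (q = 0.00601), with mixed strands and a q of 0.0138 on the strands read in all 6 striata. The groups did not overlap at these sites, while the 3 L-DOPA+R rats differed among themselves by 40 points or more.

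Among the lower DMS in genes, 3 lay in the promoter of Rn5-8s, a gene of ribosomal RNA, at 11906154, 11906162 and 11906165 of chromosome 1. At the last of them the UNT striata had 74.8, 65.6 and 68.4% and the L-DOPA+R striata 11.4, 2.44 and 21.6%, a difference of -59.7 points (q = 3.52e-10). The other two differed by -30.1 and -42.8 points. All 6 striata were read on the same strand there. The site at 11906162 had a q of 0.0156 without L-DOPA+R replicate 1. Ribosomal RNA genes are repeated in the genome, and how reads from copies were placed could not be followed here. Of the 33 other tested CpGs within 500 bp, the median differed by 6.11 points, and the range was -18.7 to 16.8 points. A lower DMS on the same chromosome, at 11911488, lay in the exon of a transcript listed as NM_001025002, with 32.4, 24.1 and 26.9% in UNT and 3.09, 0 and 1.27% in L-DOPA+R.

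Zrsr1 is an imprinted gene that lies within an intron of Commd1 and is expressed from the paternal allele, and it held the run with the most DMS. Its 4 lower DMS lay from 107751082 to 107751111 of chromosome 14, and 2 of them had a listed position, in the exon and promoter of Zrsr1. At 107751095 the UNT striata had 75.9, 62.5 and 73.5% and the L-DOPA+R striata 34.5, 22.2 and 35.3%, a difference of -40.3 points (q = 0.000834). The 4 sites differed by -36.2 to -40.3 points, and CpGs so close to each other can share reads. With 1 striatum left out in turn, each site kept a q under 0.01 in 2 or 3 of the 6 fits. Calls were lost without UNT replicate 1, 2 or 3 and without L-DOPA+R replicate 1 or 2, at q from 0.0109 to 0.139, and none without L-DOPA+R replicate 3. In the L-DOPA control striata the level at 107751095 was 63, 65 and 63.2%.

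The other runs were 6 pairs of lower DMS, and the rule named those 2 with the smallest p. At 91161187 and 91161214 of chromosome 13, an intergenic pair, the differences were -29 and -31.7 points, and their q was 0.122 and 0.136 without L-DOPA+R replicate 1. The second was also lost without UNT replicate 2 (q = 0.027). At 3272323 and 3272325 of chromosome 8, a pair without a listed position whose strands were mixed, the differences were -36 and -24.1 points. The second of these had a q of 0.354 on the strands read in all 6 striata and kept its call in 2 of the 6 fits that left out 1 striatum, those without UNT replicate 3 and without L-DOPA+R replicate 3. Of the other pairs, 1 held an intronic DMS of Plpp3, a lipid phosphatase named after its values were seen, at 124714676 of chromosome 5, with 73.2, 68.5 and 74.7% in UNT and 40.4, 36.2 and 54.1% in L-DOPA+R, and with mixed strands.

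**Figure D2:**
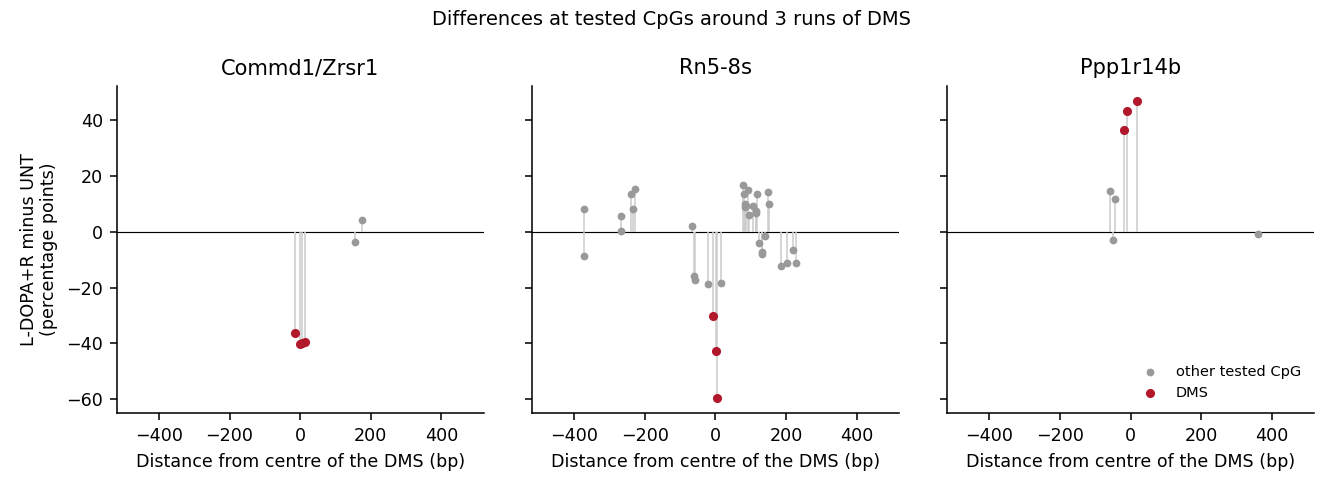
Difference between L-DOPA+R and UNT control striata (vertical axis, percentage points of pooled reads) at every tested CpG within 500 bp of the centre of the DMS of Commd1/Zrsr1, Rn5-8s and Ppp1r14b, with DMS in red and other CpGs in grey. The DMS of each run lie close together at the centre, and the other CpGs lie between -18.7 and 16.8 points.

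Elf1, Pla2g5 and Pigx held single lower DMS in exons. At the site of Elf1, an ETS transcription factor, at 61856553 of chromosome 15, the UNT striata had 98.7, 95.1 and 93% and the L-DOPA+R striata 58.3, 61.2 and 68.9% (-32.6 points, q = 7.7e-11). Both strands were read in all 6 striata, and with the strand as a term the difference was -32.4 points (q = 0.00102). The call was lost with cytosines 40 to 55 bases past a called one left out, at -24 points (q = 0.389). At the site of Pla2g5, a secreted phospholipase, at 157248813 of chromosome 5, they had 90.3, 78.1 and 91.8% and 42.9, 42.9 and 35.7% (-46.4 points, q = 2.81e-06). The L-DOPA control striata, with 100, 90 and 76.5%, lay in or near the UNT range at the site of Pla2g5.

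Pigx encodes a protein of the synthesis of GPI anchors, and its DMS at 71938539 of chromosome 11 is listed in its exon and promoter. The UNT striata had 34.4, 30.8 and 22.6% there and the L-DOPA+R striata had no methylated read among 18 to 23 reads (-29.1 points, q = 1.56e-05). The UNT reads lay on both strands and the L-DOPA+R reads on the reverse strand. With the reverse strand alone the difference was -18.4 points with a q of 0.0136, above the threshold. The call was also lost with cytosines 44 to 50 bases past a called one left out, again at -18.4 points (q = 0.0131). The L-DOPA control striata had 0, 50 and 24.5%. The 8 other tested CpGs within 100 bp differed by a median of -14.5 points.

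Promoter sequences were found in RefSeq for 2 of the 5 genes with a DMS in a promoter, Pigx and Edem2. The 250 bases before the annotated start are shown with each CpG in capitals, to set the CpG-dense start of Pigx, whose DMS was lower, beside the sparser one of Edem2, whose DMS was higher and read on opposite strands. They were taken from GRCr8, on the forward strand at chr11:82191875-82192124 for Pigx and on the reverse strand at chr3:164687560-164687809 for Edem2, and the DMS, which has rn6 coordinates, was not placed in them.
Pigx: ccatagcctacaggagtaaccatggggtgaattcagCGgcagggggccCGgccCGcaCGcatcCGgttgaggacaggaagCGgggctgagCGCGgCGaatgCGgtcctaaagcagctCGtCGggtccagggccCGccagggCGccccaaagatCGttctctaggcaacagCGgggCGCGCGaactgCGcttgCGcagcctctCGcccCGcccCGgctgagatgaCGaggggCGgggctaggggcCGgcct
Edem2: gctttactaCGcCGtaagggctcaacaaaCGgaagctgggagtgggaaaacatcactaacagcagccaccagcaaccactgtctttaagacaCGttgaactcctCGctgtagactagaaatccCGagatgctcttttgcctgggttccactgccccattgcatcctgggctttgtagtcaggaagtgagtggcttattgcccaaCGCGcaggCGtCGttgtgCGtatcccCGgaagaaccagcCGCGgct
The window of Pigx held 27 CpGs and that of Edem2 14, where the median of all 33469 promoter windows of this length was 5. At least 27 CpGs were found in 7.69% of the windows and at least 14 in 27.6%. CCGG, the site cut by MspI, occurred 4 times in the window of Pigx and once in that of Edem2, and it occurred in 46.2% of all windows. The motif reads the same on both strands, and its occurrence is a description of the windows only.

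**Figure D3:**
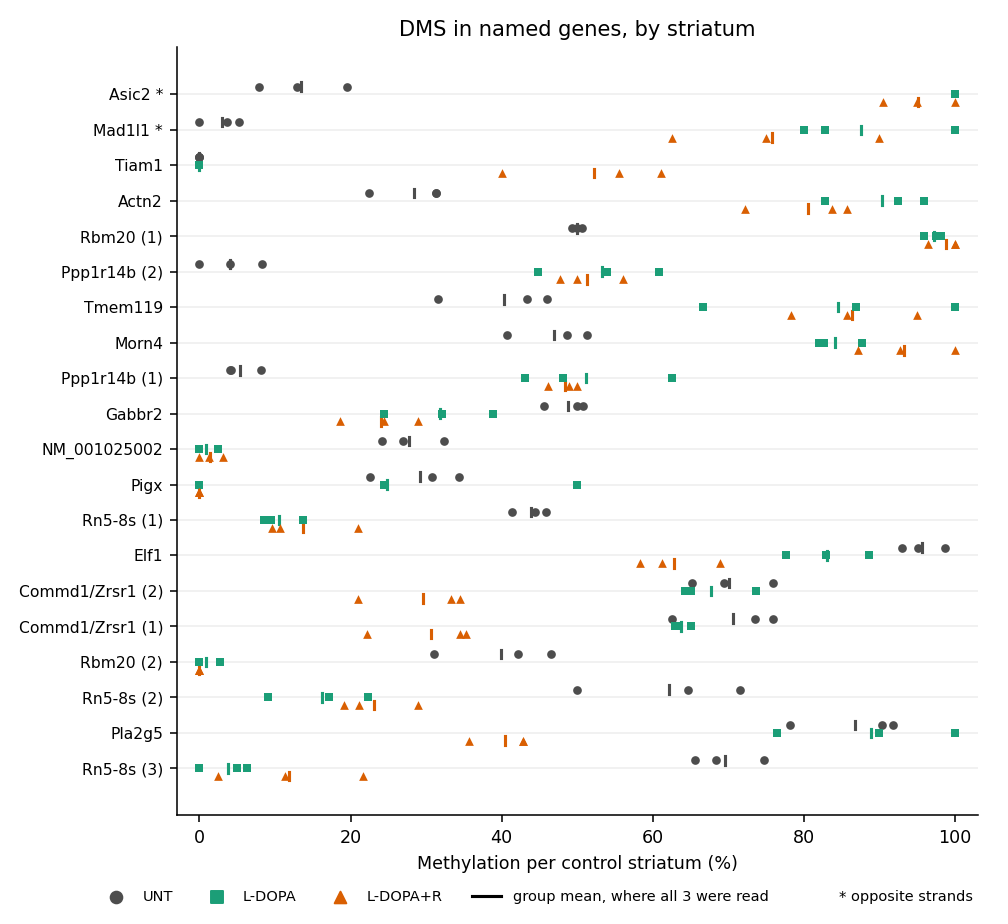
Methylation (horizontal axis, %) of each UNT (circles), L-DOPA (squares) and L-DOPA+R (triangles) control striatum at the DMS in named genes, sorted by their difference, with numbers in brackets for sites of one gene in order of position and bars at the mean of 3 striata. UNT and L-DOPA+R striata do not overlap at any of these sites, which was in part a condition of the rule that named them. The L-DOPA striata of Tiam1, Zrsr1 and Pla2g5 lie at or near UNT, and those of Rbm20, Rn5-8s and Ppp1r14b lie at or near L-DOPA+R.

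Few genes of the pathways on which these drugs act had a tested position in the study's lists of sites. Tested CpGs outside these lists carried no gene name here, so a gene without a listed position can still hold tested CpGs. Among glutamate receptors and their auxiliary subunits, 4 of 39 listed genes had a tested position, and none of the 5 positions was a DMS. The nearest to the threshold was in an intron of Grm4, a metabotropic glutamate receptor, at -15.8 points (q = 0.0456). Among genes of dopamine and cAMP signalling, none of 5 positions was a DMS, and all 5 were lower in L-DOPA+R, as were 1171 of all 1653 listed positions. The intronic position of Adcy5, the main adenylyl cyclase of the striatum, differed by -34 points (q = 0.074) with mixed strands, and that of Pde10a, a phosphodiesterase of striatal neurons, by -19.2 points (q = 0.387). These values did not pass the test.

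The voltage-gated calcium channels and genes of transmitter release had 5 listed positions tested and 0 DMS. Ntrk2, the receptor of BDNF, was the only gene of ERK signalling with a listed position tested, at -21.1 points (q = 0.562). Genes of synapse organisation and axon guidance had 15 positions and 1 DMS, in Tiam1, and their median difference was -1.83 points. Over all 1653 listed positions the median was -9.17 points. Of the genes of GABA and serotonin receptors, Gabbr2, a subunit of the GABA-B receptor, had the only listed position that was tested. The DMS of Gabbr2 in an intron at 62488988 of chromosome 5 was at 50, 50.8 and 45.6% in UNT and 18.6, 24.4 and 28.9% in L-DOPA+R (-24.9 points, q = 0.00666). It kept a q under 0.01 in 2 of the 6 fits that left out 1 striatum, and its q was 0.0393 and 0.024 without UNT replicates 1 and 2, and 0.165 and 0.0447 without L-DOPA+R replicates 1 and 2.

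Imprinted genes had 3 listed positions tested, the 2 of Zrsr1 and 1 in an intron of Igf2r at -27.8 points (q = 0.0292). The ribosomal RNA list had 5 positions, all of Rn5-8s, and 3 DMS. Of cell type markers, the striatal neuron gene Foxp1 had a position without a call (-1.34 points) and Tmem119 had its DMS. Glutamate transport, sodium and potassium channels, the DNA methylation machinery, oligodendrocytes and astrocytes had no tested position in the study's lists of sites, so nothing can be said of them. Whether the share of microglia or other cells differed between the groups was not tested.

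Outside the mitochondrial genome, the smallest q values were at intergenic CpGs with higher methylation. At 19209692 of chromosome 13, in an intergenic region read on both strands in all 6 striata, the UNT control striata had 0.909, 0.877 and 3.55% and the L-DOPA+R striata 87.6, 84 and 82.7%, a difference of 82.9 points (q = 1.01e-110). The 3 L-DOPA rats differed among themselves there, with 86.8, 7.14 and 49.3% on the control side and 93.9, 3.90 and 50.5% on the lesioned side, so both striata of a rat had nearly the same level while the rats lay far apart. The 3 other tested CpGs within 100 bp differed by a median of 1.69 points. At 14831126 of chromosome 16 the UNT striata had no methylated read and the L-DOPA+R striata had 63, 62.8 and 66.7%. No L-DOPA control striatum had a methylated read there. The third, at 145914142 of chromosome 6, was read on opposite strands, with 4.88, 0 and 2.44% in UNT and 94.7, 89.5 and 85% in L-DOPA+R.

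Levels within 10 points of 0, 50 or 100% in both groups, at different steps, were found at 16 DMS (5.93%). Of these, 11 were DMS on the same strands as well. They comprised 3 DMS from 0 to 50%, 3 from 0 to 100%, 4 from 50 to 0%, 3 from 50 to 100% and 3 from 100 to 50%. The 3 from 0 to 100% were all outside the set kept on the same strands. The share of all tested CpGs with such steps is not given here, and the DMS were selected for gaps between the groups. These counts are thus a description only. Whether sequence differences between the rats underlie such steps was not tested, since the calls hold no genotypes.

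The mitochondrial genome held 3 of the lower DMS among 14 tested CpGs, at very small differences and very high depth. At 12875 the level was 3.31 ± 0.0657% (SD) in UNT and 2.40 ± 0.0939% in L-DOPA+R, with 36109 to 65539 reads per striatum, a difference of -0.932 points (q = 3.66e-35). At 8883 and 12761 the differences were -0.708 and -0.524 points. Both strands were read at 12761 in all 6 striata and the strands at 12875 were mixed. All 3 calls ended when the most deeply covered cytosines were left out: 8883 and 12875 could then not be tested, and at 12761 the difference of what remained was 5.56 points (q = 0.535). Over all 14 CpGs, 1.17 to 1.24% of the calls were methylated in UNT and 0.948 to 0.992% in L-DOPA+R. The share of unconverted calls in the unmethylated spike-in was also higher in UNT, as given above, and its part in these differences was not tested.

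Most DMS had no other DMS within 100 bp. At the lower DMS, the UNT level was above 80% at 36.7% and from 20 to 80% at 60.8%, while at 59.2% of the higher DMS it was under 20%. At least 5 other tested CpGs within 100 bp surrounded 10% of the DMS and 25.2% of the tested CpGs, and 22.2% and 15.3% had none. At the 203 DMS with a tested CpG within 100 bp that was no DMS, the median size of the difference was 33.2 points, and the median of these neighbours differed by 5.61 points in size. The same values had placed the DMS past the threshold and the neighbours outside it, so this gap is partly fixed by selection. Neighbouring DMS at most 100 bp apart formed 13 pairs, and all 13 had the same direction (95% Wilson interval 77.2 to 100%, counting error only), where 49.5% of neighbouring tested CpGs did. The tested CpGs were 50.7% lower and 34.8% higher, the rest without a difference, and the DMS were 73.7% lower. The 49.5% is thus not a like baseline for the DMS. These pairs came from 9 runs with 22 DMS, and CpGs of a run can share reads.

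The lesioned striata of the same rats, which were not used for the calls, had the same direction at most DMS. They are not independent animals, and 241 DMS were read in all 6 of them. The direction was the same at 226, and at 138 the L-DOPA+R and UNT lesioned striata also did not overlap. Over the 338101 CpGs read on both sides, 51.8% had the same direction, a share that also counts CpGs without a difference on either side. The same direction without overlap was found at 5.05%. A q under 0.01 on the lesioned side, in the same direction, was found at 62 DMS and at 0.0464% of these CpGs. At the 59 higher DMS, all had the same direction and 53 did not overlap, where 42.0 and 3.48% of the tested CpGs that were higher on the control side did so, with a median difference of 40.7 points on the lesioned side and 44.1 on the control side. At the 182 lower DMS, 167 had the same direction and 85 did not overlap, where 57.0 and 7.36% of the tested CpGs that were lower on the control side did so, with medians of -11.5 and -29.2 points. Of all 71 higher DMS, 44 were kept on the same strands, and on the lesioned side the strands were added up without this filter. Among the kept DMS of both directions, 187 were read in all 6 lesioned striata, 174 had the same direction and 105 did not overlap. The control side values were selected by the call and the lesioned side values were not.

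**Figure D4:**
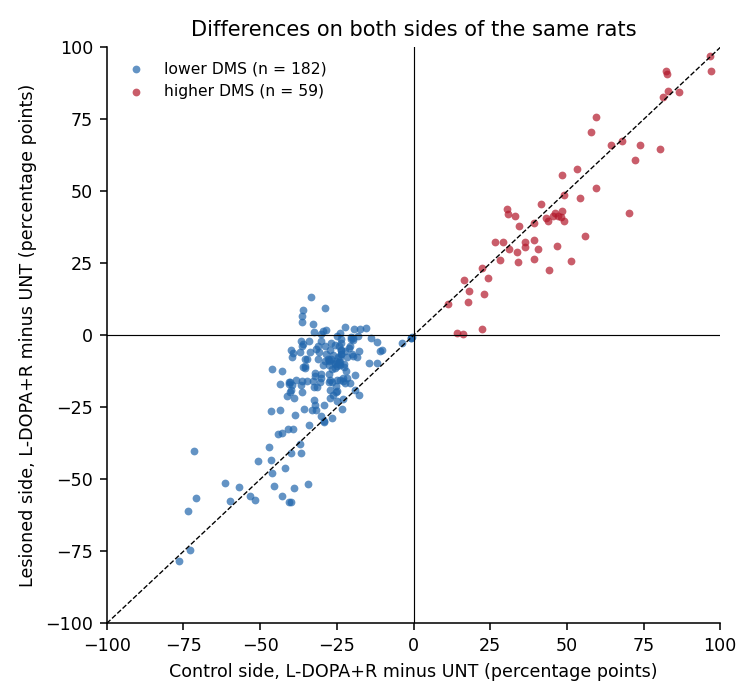
Difference between L-DOPA+R and UNT (percentage points of pooled reads) on the control side (horizontal axis) and on the lesioned side (vertical axis) at the 241 DMS read in all 12 striata, with a dashed line where both are equal. The 59 higher DMS lie along the line, and most of the 182 lower DMS lie above it, with a median of -11.5 points on the lesioned side.

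A test of the difference between the sides found no CpG past the threshold. In a logistic model with treatment, side and their interaction, 0 of 338101 CpGs had a q under 0.01 for the interaction, and 22060 (6.52%) had an unadjusted p under 0.05, among them 88 of the 241 DMS. The control side values that had called the DMS also entered this model, so the count among the DMS is partly fixed by the call. The model treats both striata of a rat as separate samples. At Tiam1 the UNT lesioned striata had no methylated read and the L-DOPA+R ones had 66.7, 30.8 and 47.1%. At Gabbr2 they had 47.2, 45.1 and 65.1% in UNT and 26.7, 20.8 and 38.1% in L-DOPA+R, so that the groups did not overlap on the lesioned side at either site. At 107751095 in Zrsr1 they had 57.9, 63.6 and 63.2% and 50, 28 and 44%, a difference of -19.7 points, and these groups did not overlap.

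The L-DOPA rats, which received no Riluzole, had levels between the groups or near one of them. All 3 of their control striata were read at 242 DMS, of which 186 were lower and 56 higher. At the lower DMS the median level was 70.1% in UNT and 31.1% in L-DOPA+R, with 54.6% in the L-DOPA rats. At the higher DMS it was 12 and 81.2%, with 62.3% in the L-DOPA rats. All 3 L-DOPA striata were nearer to the L-DOPA+R mean than to the UNT mean at 64 DMS, 2 of the 3 at 38, 1 at 75 and none at 65. The UNT and L-DOPA+R levels were selected to lie apart and the L-DOPA levels were not, so these counts are a description and no test of Riluzole.

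**Figure D5:**
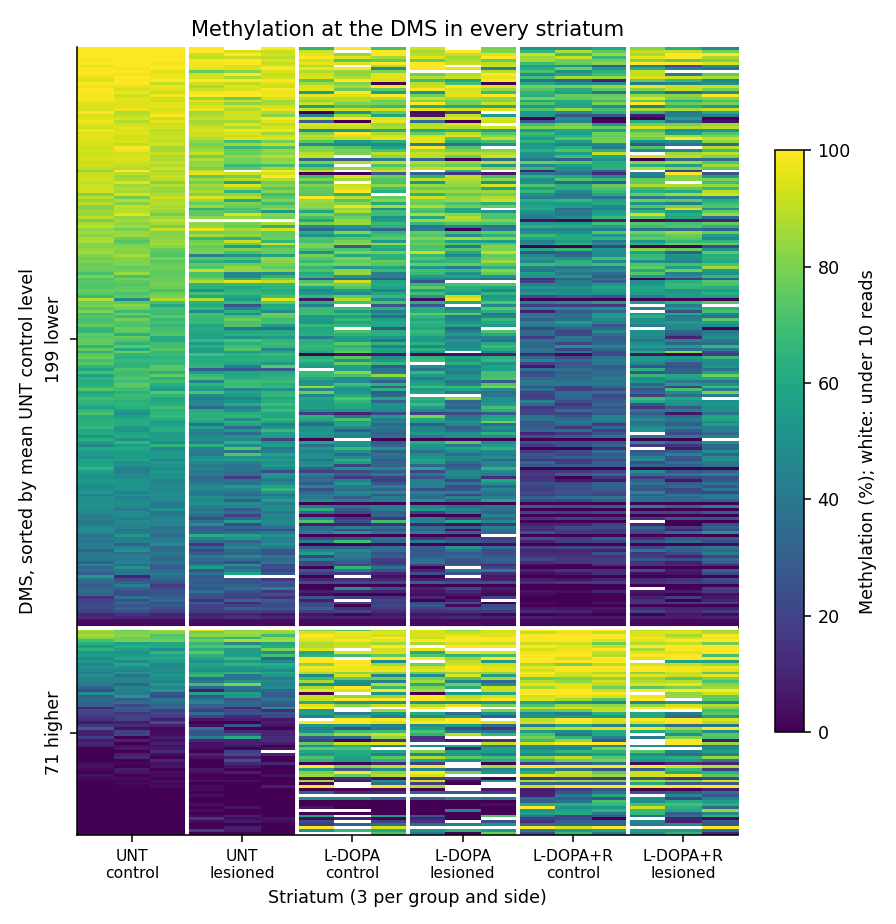
Methylation (colour, %) at the 270 DMS (rows, 199 lower above the white line and 71 higher below it, each sorted by the mean UNT control level) in the 18 striata (columns, 3 for each group and side), with white where a striatum had no cytosine with 10 reads. The UNT lesioned and L-DOPA+R lesioned columns resemble the control columns of their group most at the higher DMS, and the L-DOPA columns vary between rats at a part of the DMS.

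The levels of the L-DOPA rats also differed between rats at single DMS. The level of their 3 control striata spanned more than 40 points at 21 of the 242 DMS, of which 17 were DMS on the same strands. The share of all tested CpGs with such a span is not given here. These striata had a median of 19 to 31 reads per tested CpG, and the part of read sampling in the spans was not tested. At the 220 DMS read in all 6 L-DOPA striata, the mean gap between the control and the lesioned striatum of a rat was 9.17 points, and the mean gap between the control striatum of a rat and the lesioned striatum of another was 11.1 points. At the 71825 tested CpGs with a mean level of 20 to 80%, these gaps were 11.4 and 11.6 points. With 3 rats in each group, a treatment difference and a difference between these particular rats cannot be told apart at a single CpG.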

How the data were processed

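Methylation was measured by RRBS in both striata of 9 rats, and the control striata of UNT and L-DOPA+R rats were compared, with groups taken from the labels. Per the methods, reads were trimmed with Trim Galore 0.4.0 and mapped to rn6 with Bismark. Several libraries were pooled before the bisulfite step, and which striata shared a pool is not given in the sources used here. The authors deposited, for each cytosine and strand, the count of reads (coverage) without a minimum and the shares of C and of T among these reads in percent. Methylated reads were the coverage multiplied by the percent, and were whole at every cytosine. The spike-in controls were used for conversion alone.

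With Python 3.11.15, numpy 2.4.6, pandas 2.3.3 and scipy 1.17.1, the test of methylKit was rewritten and tested on simulated data: a logistic model per CpG, overdispersion from Pearson residuals (at least 1), a chi-square test, Benjamini-Hochberg adjustment, and q under 0.01. limma 3.58.1 in R 4.3.3 was an alternative, on log2 ratios with 0.5 added to both counts. Differences are L-DOPA+R minus UNT from the summed reads of a group, and mean ± SD is over 3 rats. Intervals cover counting error only. Samples of a group come from different rats, and the same replicate number in both groups stands for different rats.

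The DMS named were the 8 lower and 8 higher ones in or before a gene with the smallest p, the 3 of each direction wherever they lie, the 5 runs with the most DMS (each DMS at most 100 bp from the next, ties by smallest p), and every DMS in a gene of the lists, where the groups did not overlap. The members and lists were chosen with earlier results of these data known. The lists held glutamate receptors, glutamate transport, dopamine and cAMP signalling, ERK signalling, sodium and potassium channels, calcium channels and release, GABA and serotonin receptors, synapse organisation, DNA methylation machinery, imprinted genes, markers of striatal neurons, oligodendrocytes, astrocytes, microglia and vessels, and ribosomal RNA. Genes and regions came from the study's lists of sites by exact position, since no annotation of rn6 was used here; symbols of 3 transcripts came from RefSeq. Alternatives were another read minimum, strand handling, adjustment, test, coverage limit, chromosomes, replicate block and each striatum left out. The strand filter and the wider exclusions of 44 to 50 and 40 to 55 bases were chosen after seeing the data.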

Additional observations from a re-analysis of the deposited data

How the results depend on the processing

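The 270 DMS (199 lower, 71 higher) depended on the handling of read ends, depth and spread. With all cytosines kept there were 1391 (1159 lower, 232 higher), and with cytosines exactly 50 bases past another left out 572 (376 and 196). A minimum of 20 reads gave 143 (120 and 23), and a minimum of 5 reads 362, of which 115 were higher. Without the overdispersion correction there were 1594 (1237 and 357). The F test and limma each gave 0 in both directions, with 7411 and 32640 CpGs at an unadjusted p under 0.05. With the strand as a term, 28317 CpGs could be tested and 17 were DMS (13 and 4). The higher DMS numbered 112 when 2 of 3 striata in each group sufficed, 47 with each strand on its own, 44 with strands read in all 6 striata, 38 with cytosines 44 to 50 bases past left out and 31 with 40 to 55. Leaving out 1 striatum in turn gave 162 to 494 DMS, 104 to 393 lower and 58 to 113 higher, and 116 to 186 of the 270 were among them. Every alternative with calls had more lower than higher DMS.

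Replicate numbers are shared between the groups but stand for different rats, and deviations of same-numbered striata correlated across CpGs with r of -0.0111 to 0.00371. With the replicate number as a block there were 551 DMS (387 and 164), of which 227 were among the 270. The block removed the call at 3 of the 33 named sites.

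Of the 33 named sites, 28 of the 30 that could be tested kept their call on the strands read in all 6 striata, and 18 of 18 kept it with at least 20 reads. With cytosines 40 to 55 bases past left out, 20 could be tested and 18 kept it. Under the F test and under limma, 0 of the 33 kept it. At 12761 of the mitochondrial genome the difference turned to 5.56 points under the coverage limit, which left out a part of its reads. The mean level per striatum differed by -6.52 points as a share of all reads, -1.77 with at least 20 reads, and -1.18 to -1.99 with 1 striatum left out, where the smallest possible exact p is 0.2. With 3 rats a group and 19 to 44 reads at the median CpG, a CpG without a call is not shown to be equal in both groups.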
